A study of Danio rerio with 20 samples.

Results

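Cardiomyocytes isolated from adult zebrafish hearts 5 days after resection of the ventricular apex (5 days post injury, 5 dpi) were compared with those of untouched hearts, gene by gene, by bulk mRNA sequencing. The 5 dpi group was wild type, 4 to 6 months old, with about 20% of the apex cut away. The untouched group was wild type, of the same age range, and had no resection. Each group had 2 libraries, and each library came from cells of 8 pooled ventricles. The comparison covers the genes at a CPM (read counts per 1000000 reads) of at least 1 in 2 or more of the 4 libraries, which held for 10320 of the 14781 genes in the deposited table. The wild-type groups at 2, 7 and 14 dpi, with 2 libraries each, the same age range and the same resection, shared the estimate of the spread. The libraries of kit mutants, whose cardiomyocyte proliferation was the question of the study, entered 1 alternative fit only.

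Zebrafish regrow a resected ventricle from existing cardiomyocytes, which partly dismantle their contractile apparatus and divide. The wound first fills with a clot, and macrophages and neutrophils enter it. Epicardium, the cell layer around the heart, and fibroblasts then lay down a provisional matrix rich in fibronectin and hyaluronan, and new vessels grow in from the endocardium and coronary endothelium.

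The 4 libraries held 18922146 to 22129621 reads on genes. Values are given as scaled CPM, which is the deposited CPM divided by a factor for each library, so that levels are not corrected for gene length and are compared within a gene only. Differences are on the scale of log2(scaled CPM + 1), where the added 1 makes the change of low genes look smaller than it is. Adjusted p-values come from limma with Benjamini-Hochberg adjustment over all 10320 genes, and a gene is called changed where that value is under 0.05. Replicates were close, with 0.359% of genes more than 1 apart on that log2 scale between the 5 dpi libraries and 0.678% between the untouched ones. Because of the added 1, low genes more than 2-fold apart in scaled CPM can escape this count. Nothing in the labels says how far the replicates were prepared separately, so the p-values measure the spread between these libraries.

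The label was checked against markers. All 6 cardiomyocyte markers in the table were abundant, 1 of them (atp2a2a) fell and 0 rose, and they summed to 42795 and 51556 scaled CPM at 5 dpi, against 64300 and 69957 in untouched hearts. The cells were isolated as cardiomyocytes, yet markers of other heart cells were present. The 7 fibroblast markers summed to 6372 and 6288 scaled CPM at 5 dpi, against 2388 and 2565 in untouched hearts, and all 6 that could be tested rose. The 7 macrophage markers summed to 307 and 315 scaled CPM at 5 dpi, against 61.5 and 54.6 in untouched hearts, and all 7 rose. The 6 endothelial markers went the other way, with a sum of 967 and 945 scaled CPM at 5 dpi, against 1466 and 1411 in untouched hearts, and 5 of the 6 fell. Neutrophil markers summed to 123 and 97.4 scaled CPM at 5 dpi, against 50.6 and 51.5 in untouched hearts, with 3 of 4 tested higher. In these bulk libraries, fewer cells of a type and less RNA per cell cannot be told apart, which holds for each result that follows.

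At 5 dpi 2769 genes had changed against untouched hearts, which is 26.8% of those tested. Of these, 1410 were higher (13.7%) and 1359 lower (13.2%). The rises were the larger changes. A log2 difference of 1 or more was reached by 552 higher genes, and one of -1 or less by 120 lower genes. Beyond 2 in size the counts were 85 higher and 9 lower genes, and beyond 3 they were 13 and 1. The filter let in 258 genes through the 5 dpi libraries alone, of which 150 were called higher, and 42 through the untouched libraries alone, of which 18 were called lower. A gene that enters through the group where it is high has to differ, so no test is given for the 3 such genes named below, grn2, lama1 and lepb. The median difference over all genes tested was -0.03. With CPM as deposited, without the factors, the median was 0.14, a shift of 0.16, and the split became 1942 higher (18.8%) and 621 lower genes (6.02%). The counts and medians of gene lists below are to be set against these shares and this median of all genes. Some lists share members, so their counts are not independent. The fibroblast list shares type I collagen genes with the collagen list, and fn1a and fn1b with the matrix glycoprotein list. The C1q genes are on the macrophage and complement lists, and cd36 is on the endothelial and fatty acid lists.

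**Figure D1:**
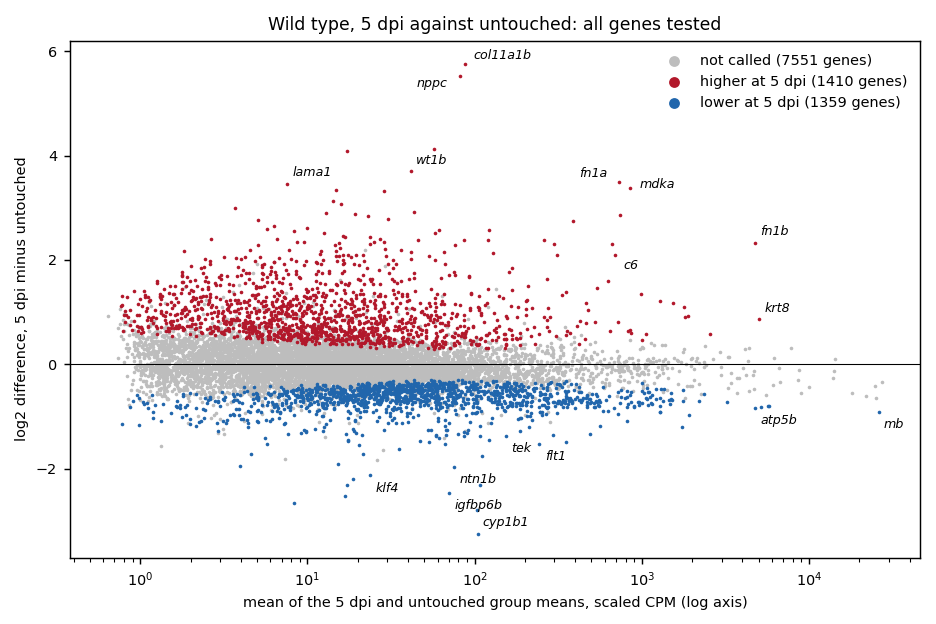
Log2 difference of each of the 10320 genes tested (5 dpi minus untouched, vertical axis) against its mean level in scaled CPM (log axis). Red points are the 1410 genes called higher at 5 dpi, blue points the 1359 called lower and grey points those not called; rises reach a log2 difference of 5.75, and named genes are marked.

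Of the 2769 calls, 707 (6.85% of genes tested) held when each of the 4 libraries was left out in turn, 499 of them higher (4.84%) and 208 lower (2.02%). These are termed kept calls here. The number called was 937 without 5 dpi replicate 1, 1245 without 5 dpi replicate 2, 1935 without untouched replicate 1 and 1076 without untouched replicate 2. List counts given below with 1 library left out are to be set against these smaller numbers for all genes. A call can also be lost with little change in the difference itself. For cdh5, lost in all 4 of these fits, the log2 difference lay between -0.40 and -0.31. A called gene named below without a remark on lost calls has a kept call. The libraries of the 2 groups did not overlap in 7059 of the 10320 genes tested (68.4%), and in all 2769 of those called. For a called gene, groups said below to be apart or not to overlap therefore add no support.

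The 12 largest kept rises included genes of the matrix, of secreted peptides and of the epicardium. col11a1b, which encodes a chain of the fibrillar type XI collagen, had 176 and 169 scaled CPM at 5 dpi, against 2.93 and 1.65 in untouched hearts. The 5 dpi mean was 75.4-fold the untouched mean, and the log2 difference was 5.75 ± 0.19 (SE, limma adjusted p = 3.8e-07). nppc encodes C-type natriuretic peptide and had 162 and 160.4 scaled CPM at 5 dpi, against 3.16 and 2.01 in untouched hearts, with a log2 difference of 5.52 ± 0.30 (limma adjusted p = 4.9e-06). The groups were again far apart, and the 5 dpi replicates nearly equal. wt1b, a Wilms tumour transcription factor that marks activated epicardium, had 87.6 and 68.8 scaled CPM at 5 dpi, against 5.51 and 4.60 in untouched hearts (log2 difference 3.70 ± 0.19, limma adjusted p = 4.0e-06). mdka, which encodes the heparin-binding growth factor midkine, had 1641 and 1474 scaled CPM at 5 dpi, against 155 and 141 in untouched hearts (log2 difference 3.39 ± 0.17, limma adjusted p = 3.9e-06). In these genes the lower 5 dpi library stood far above the higher untouched one.

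The provisional matrix genes were in the same set. fn1a, a fibronectin gene, had 1350 and 1316 scaled CPM at 5 dpi, against 109.8 and 127 in untouched hearts (log2 difference 3.49 ± 0.15, limma adjusted p = 9.4e-07). has1, a hyaluronan synthase, had 28.5 and 24.5 scaled CPM at 5 dpi, against 2.01 and 2.22 in untouched hearts (log2 difference 3.14 ± 0.12, limma adjusted p = 8.3e-07). lama1, the laminin alpha 1 chain of basement membranes, had 14.6 and 14.9 scaled CPM at 5 dpi, against 0.344 and 0.516 in untouched hearts (log2 difference 3.46 ± 0.19), and it passed the filter through the 5 dpi libraries alone. Beside lama1, none of the 8 laminin chains tested was called in either direction, while with CPM as deposited 3 of the 8 were called higher.

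Of the other large rises, 3 had uneven 5 dpi replicates or few reads. grn2, a short granulin gene, had 58.7 and 8.99 scaled CPM at 5 dpi, against 0.459 and 0.413 in untouched hearts (log2 difference 4.09 ± 0.79), and it too passed the filter through the 5 dpi libraries alone. c3a.1, a complement C3 gene, had 88.0 and 19.7 scaled CPM at 5 dpi, against 3.04 and 3.56 in untouched hearts (log2 difference 3.32 ± 0.52, limma adjusted p = 0.002). In both, 5 dpi replicate 1 was several-fold above replicate 2, which itself stood above both untouched libraries. grn1, another short granulin, had 103 and 116 scaled CPM at 5 dpi, against 7.87 and 3.46 in untouched hearts (log2 difference 4.13 ± 0.65, limma adjusted p = 0.0021). Counting could divide reads between such similar copies in a way that the table does not show. lepb, a leptin gene, had 197 and 130 reads at 5 dpi, against 1 and 0 in untouched hearts, so its log2 difference of 3.001 depends on the added 1. lipg, an endothelial lipase, had 36.104 and 22.3 scaled CPM at 5 dpi, against 1.66 and 3.62 in untouched hearts (log2 difference 3.07 ± 0.30, limma adjusted p = 1.5e-04).

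**Figure D2:**
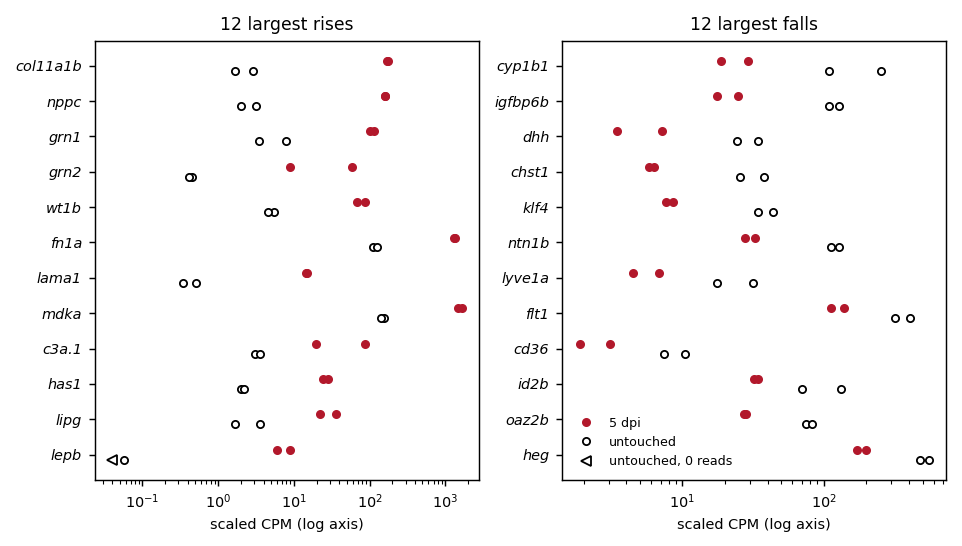
Scaled CPM (log axis) of the genes with the largest kept rises (left, 12 genes) and falls (right, 12 genes), 1 point per library: filled red, 5 dpi; open black, untouched; the open triangle marks a library with 0 reads, drawn at the left edge. Groups that do not overlap were a condition for both sets. The widest spread between 5 dpi libraries is in grn2 and c3a.1.

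The 12 largest kept falls were of genes of varied function. cyp1b1, a cytochrome P450, had 18.7 and 29.0 scaled CPM at 5 dpi, against 109 and 255 in untouched hearts (log2 difference -2.79 ± 0.33, limma adjusted p = 5.3e-04). The 2 untouched libraries were more than 2-fold apart, and both lay above the 5 dpi ones. igfbp6b, which encodes an insulin-like growth factor binding protein, had 17.6 and 24.6 scaled CPM at 5 dpi, against 129 and 109 in untouched hearts (log2 difference -2.46 ± 0.33, limma adjusted p = 0.001). dhh, the ligand desert hedgehog, had 3.43 and 7.21 scaled CPM at 5 dpi, against 34.3 and 24.2 in untouched hearts (log2 difference -2.30 ± 0.35, limma adjusted p = 0.0018). klf4, a Krüppel-like transcription factor, had 7.67 and 8.62 scaled CPM at 5 dpi, against 43.6 and 34.5 in untouched hearts (log2 difference -2.12 ± 0.16, limma adjusted p = 3.8e-05). Groups that do not overlap were a condition for entering this set of 12. The guidance factor netrin gene ntn1b (-1.97), the hyaluronan receptor gene lyve1a (-1.91), the sulfotransferase gene chst1 (-2.19), the transcriptional inhibitor gene id2b (-1.52), the antizyme gene oaz2b (-1.48) and the endocardial receptor gene heg (-1.48, each a log2 difference) completed the set with flt1 and cd36.

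Genes of fibroblasts and of the epicardium rose more often than they fell. Of 38 fibroblast and mural cell genes tested, 21 were higher and 5 lower at 5 dpi, with a median log2 difference of 0.57 and 13 kept rises. For the fibroblast genes, the number higher was 13 without 5 dpi replicate 1, and 1 passed the filter through the 5 dpi libraries alone, with 1 called higher. postnb, the matricellular protein periostin, had 1322 and 1284 scaled CPM at 5 dpi, against 179 and 179 in untouched hearts (log2 difference 2.86 ± 0.16, limma adjusted p = 5.5e-06). fn1b, the other fibronectin gene, had 8224 and 7613 scaled CPM at 5 dpi, against 1602 and 1540 in untouched hearts (log2 difference 2.33 ± 0.19, limma adjusted p = 4.7e-05). The replicates of both genes were near each other in either group. The 5 lower genes included myh11a, the smooth muscle myosin, and rgs5a, a pericyte marker. Smooth muscle and mural markers did not fall as a set: of 4 tested, 1 was called higher and 2 lower. The 5 such markers in the table summed to 637 and 658 scaled CPM at 5 dpi, against 636 and 848 in untouched hearts. myh11a had 71.1 and 70.0 scaled CPM at 5 dpi, against 110.4 and 162 in untouched hearts (log2 difference -0.91 ± 0.20, limma adjusted p = 0.0091), and its call was lost without 5 dpi replicate 1, 5 dpi replicate 2 or untouched replicate 2, at adjusted p 0.056, 0.052 and 0.075. rgs5a had 72.3 and 57.9 scaled CPM at 5 dpi, against 123 and 178 in untouched hearts (log2 difference -1.18 ± 0.29, limma adjusted p = 0.016), lost without 5 dpi replicate 1, 5 dpi replicate 2 or untouched replicate 2, at adjusted p 0.055, 0.1 and 0.12. Untouched replicate 2 held the highest value of both genes.

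Of 20 epicardial genes tested, 12 were higher and 0 lower, with a median log2 difference of 0.58 and 5 kept rises. For the epicardial genes, the number higher was 5 without 5 dpi replicate 1, 7 without 5 dpi replicate 2 and 6 without untouched replicate 2. wt1a, the second Wilms tumour gene, had 51.4 and 51.1 scaled CPM at 5 dpi, against 13.9 and 13.1 in untouched hearts (log2 difference 1.85 ± 0.13, limma adjusted p = 2.4e-05). bnc2, a zinc finger factor, had 74.9 and 59.3 scaled CPM at 5 dpi, against 20.9 and 17.5 in untouched hearts (log2 difference 1.75 ± 0.15, limma adjusted p = 8.1e-05). The keratin gene krt8 had the highest values of the list, 6607 and 6361 scaled CPM at 5 dpi, against 3366 and 3775 in untouched hearts (log2 difference 0.86 ± 0.16, limma adjusted p = 0.0052). The epicardial markers tbx18 and aldh1a2 had log2 differences of 0.55 ± 0.16 and 0.55 ± 0.17. Each of these 2 calls was lost without any 1 of the 4 libraries, with adjusted p up to 0.18 for tbx18 and 0.22 for aldh1a2, which was also lost with no filter, at adjusted p 0.061.

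The matrix genes did not all go one way. Of 17 collagen chains tested, 8 were higher and 5 lower (median log2 difference 0.47). For the collagen genes, 3 of 8 rises and 1 of 5 falls were kept, and 1 passed the filter through the 5 dpi libraries alone, with 1 called higher. The higher ones included all 5 tested chains of types I and XI, and the chain with the highest values, col1a1b, had 2461 and 2393 scaled CPM at 5 dpi, against 1077 and 1181 in untouched hearts (log2 difference 1.105 ± 0.23, limma adjusted p = 0.0083), a call lost without 5 dpi replicate 1, at adjusted p 0.058. col11a1a had 29.7 and 24.4 scaled CPM at 5 dpi, against 5.34 and 5.68 in untouched hearts (log2 difference 2.101 ± 0.27, limma adjusted p = 7.5e-04). Among the lower ones, col15a1b, a basement membrane collagen, had 9.05 and 8.26 scaled CPM at 5 dpi, against 18.3 and 14.1 in untouched hearts (log2 difference -0.82 ± 0.16, limma adjusted p = 0.0059). Of 68 matrix glycoprotein, proteoglycan and crosslinking genes, 25 were higher and 12 lower (median log2 difference 0.23). For the glycoprotein and crosslinking genes, 17 of 25 rises and 2 of 12 falls were kept, CPM as deposited gave 32 higher and 7 lower, and 3 passed the filter through the 5 dpi libraries alone, with 2 called higher. All 5 tested lysyl oxidases, which crosslink collagen, rose, 3 with kept calls. Among the falls, elna, an elastin gene, had 52.8 and 66.1 scaled CPM at 5 dpi, against 169 and 140.3 in untouched hearts (log2 difference -1.37 ± 0.16, limma adjusted p = 5.0e-04). matn4, a matrilin, had 36.4 and 42.6 scaled CPM at 5 dpi, against 98.0 and 91.7 in untouched hearts (log2 difference -1.25 ± 0.16, limma adjusted p = 8.5e-04).

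Most genes of matrix proteases and their inhibitors rose. Of 22 matrix protease and inhibitor genes tested, 15 were higher and 3 lower, with a median log2 difference of 0.84. For the protease and inhibitor genes, 9 of 15 rises and 3 of 3 falls were kept. timp2b, an inhibitor of metalloproteinases, had 216 and 188 scaled CPM at 5 dpi, against 43.6 and 32.8 in untouched hearts (log2 difference 2.38 ± 0.18, limma adjusted p = 3.7e-05). The gelatinase gene mmp2, with the highest values of the list, had 859 and 727 scaled CPM at 5 dpi, against 307 and 264 in untouched hearts (log2 difference 1.47 ± 0.14, limma adjusted p = 1.3e-04). Both genes of membrane type metalloproteinase 14 rose, with log2 differences of 1.35 for mmp14a and 1.77 for mmp14b; they were chosen after their values were seen. All 3 lower genes were of the ADAMTS family of proteoglycan-cutting enzymes, adamts5 (-1.28 ± 0.21), adamts9 (-0.89 ± 0.13) and adamts10 (-0.69 ± 0.12, log2 difference and SE), while adamts15a of the same family rose, with a log2 difference of 0.71 ± 0.13; it too was chosen after its values were seen.

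Most macrophage genes tested rose. Of 54 tested, 43 were higher and 1 lower at 5 dpi, with a median log2 difference of 1.45 and 30 kept rises. Through the 5 dpi libraries alone 5 of the 54 passed the filter, with 3 called higher. mpeg1.1, a perforin-like gene that marks macrophages, had 42.4 and 39.0 scaled CPM at 5 dpi, against 7.29 and 6.15 in untouched hearts (log2 difference 2.44 ± 0.27, limma adjusted p = 3.8e-04). ctssb.1, a cathepsin S gene, had 52.95 and 43.5 scaled CPM at 5 dpi, against 12.7 and 14.3 in untouched hearts (log2 difference 1.76 ± 0.23, limma adjusted p = 8.4e-04). cd74a, the invariant chain of class II antigen presentation, had 459 and 496 scaled CPM at 5 dpi, against 183 and 195 in untouched hearts (log2 difference 1.33 ± 0.21, limma adjusted p = 0.002). Replicates were near each other in all 3 genes. Of 5 subunits of the phagocyte NADPH oxidase, 4 rose, all with kept calls and with 2.35 as the largest log2 difference. The 1 lower gene, slc11a2, encodes an iron transporter that many cells use; it had 43.8 and 40.2 scaled CPM at 5 dpi, against 55.5 and 73.1 in untouched hearts, and its call was lost without 5 dpi replicate 1, 5 dpi replicate 2 or untouched replicate 2, at adjusted p 0.079, 0.12 and 0.17; it was also lost with CPM as deposited, at adjusted p 0.074.

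Of 10 complement genes tested, 8 were higher and 0 lower (median log2 difference 2.21). For the complement genes, 7 of 8 rises were kept. c6, a component of the membrane attack complex, had 1220 and 1011 scaled CPM at 5 dpi, against 266 and 249.6 in untouched hearts (log2 difference 2.104 ± 0.16, limma adjusted p = 3.8e-05). clu, the complement regulator clusterin, had 561 and 435 scaled CPM at 5 dpi, against 111 and 87.3 in untouched hearts (log2 difference 2.31 ± 0.18, limma adjusted p = 3.9e-05). The 3 C1q chain genes, which macrophages express, had log2 differences between 2.34 and 2.44. Of 20 antigen presentation genes, 17 were higher and 0 lower (median log2 difference 0.86). For the antigen presentation genes, 11 of 17 rises were kept, and the number higher was 11 without 5 dpi replicate 1. All 4 tested catalytic subunits of the immunoproteasome rose, with kept calls and log2 differences between 1.497 and 1.78; psmb8a had 37.6 and 30.0 scaled CPM at 5 dpi, against 9.07 and 9.92 in untouched hearts (log2 difference 1.72 ± 0.14, limma adjusted p = 4.7e-05). The constitutive proteasome did not share this, with 1 of 40 genes higher and 6 lower; with CPM as deposited 0 were lower and 2 higher. The 1 higher gene there was psma6l, an alpha subunit-like gene (log2 difference 1.08 ± 0.17, limma adjusted p = 0.002).

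Of 24 neutrophil genes tested, 9 were higher and 0 lower (median log2 difference 0.84), with 3 kept rises. For the neutrophil genes, 3 passed the filter through the 5 dpi libraries alone, with 2 called higher. The myeloperoxidase gene mpx, chosen as a marker, had 11.5 and 8.44 scaled CPM at 5 dpi, against 2.41 and 1.91 in untouched hearts, and its call was lost without 5 dpi replicate 1 or untouched replicate 2, at adjusted p 0.077 and 0.069. The lysozyme gene lyz had 19.9 and 8.03 scaled CPM at 5 dpi, against 5.74 and 4.44 in untouched hearts, and was not called (limma adjusted p = 0.076), though it was called with the 4 libraries alone and with all 20 libraries in the fit, at adjusted p 0.029 and 0.021. Its 5 dpi libraries were more than 2-fold apart. adam8a, a metalloproteinase of leukocytes, had 139 and 116 scaled CPM at 5 dpi, against 26.1 and 24.6 in untouched hearts (log2 difference 2.28 ± 0.17, limma adjusted p = 3.1e-05). Of 19 lymphocyte genes, 4 were higher, 2 of them with kept calls, and 0 lower (median log2 difference 0.36). For the lymphocyte genes, 5 passed the filter through the 5 dpi libraries alone. These held 3 of the 4 higher calls, so the count is not evidence of a rise. Levels were low; blnk, a B cell linker protein, had 9.27 and 9.22 scaled CPM at 5 dpi, against 2.07 and 2.32 in untouched hearts (log2 difference 1.68 ± 0.24, limma adjusted p = 0.0015).

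Inflammatory mediators rose in many cases. Of 41 such genes tested, 19 were higher and 1 lower (median log2 difference 0.62). For the mediator genes, 9 of 19 rises and 0 of 1 falls were kept, the number higher was 10 without 5 dpi replicate 1 and 11 without 5 dpi replicate 2, and 1 passed the filter through the 5 dpi libraries alone, with 1 called higher. ptgs2a, an inducible cyclooxygenase, had 123 and 92.0 scaled CPM at 5 dpi, against 21.4 and 24.8 in untouched hearts (log2 difference 2.16 ± 0.17, limma adjusted p = 4.2e-05). The constitutive cyclooxygenase ptgs1 was the 1 lower gene, at 37.7 and 38.55 scaled CPM at 5 dpi, against 47.2 and 50.6 in untouched hearts, and its call was lost without any 1 of the 4 libraries, at adjusted p 0.066 to 0.17; it was also lost with CPM as deposited and with quantile normalization, at adjusted p 0.24 and 0.066. csf1a, the macrophage growth factor, had 25.6 and 21.0 scaled CPM at 5 dpi, against 3.27 and 1.45 in untouched hearts (log2 difference 2.91 ± 0.24, limma adjusted p = 4.7e-05). cxcl18b, a chemokine, had 348 and 271 scaled CPM at 5 dpi, against 107 and 108 in untouched hearts (log2 difference 1.51 ± 0.15, limma adjusted p = 1.5e-04). nfkbiaa, the NF-kappa-B inhibitor, had the highest values of the list, 989.7 and 903 scaled CPM at 5 dpi, against 309.8 and 315 in untouched hearts (log2 difference 1.59 ± 0.32, limma adjusted p = 0.0066); its call was lost without 5 dpi replicate 1, at adjusted p 0.052. In none of these 5 genes did the groups overlap. Of 29 interferon response genes, 14 were higher, 4 with kept calls, and 0 lower (median log2 difference 0.60). For the interferon genes, the number higher was 9 without 5 dpi replicate 1, 6 without 5 dpi replicate 2 and 4 without untouched replicate 2, and 2 passed the filter through the 5 dpi libraries alone, with 2 called higher. stat1b, a transducer of interferon signals, had 30.6 and 34.2 scaled CPM at 5 dpi, against 9.87 and 6.30 in untouched hearts. It was chosen after its values were seen.

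Genes on the list of growth factor ligands were called lower at a share near that of all genes, and higher more often. The list also holds members that are not ligands, such as the enzyme gene aldh1a2, which was called higher (values above). Of 69 ligand genes tested, 17 were higher and 9 lower (median log2 difference -0.02, and 0.13 with CPM as deposited). For the ligand genes, 5 of 17 rises and 2 of 9 falls were kept, CPM as deposited gave 21 higher and 5 lower, the number higher was 6 without 5 dpi replicate 1, 8 without 5 dpi replicate 2, 7 without untouched replicate 1 and 8 without untouched replicate 2, and 1 passed the filter through the 5 dpi libraries alone, with 0 called higher. Beside mdka and nppc, igf2b, an insulin-like growth factor, had 288 and 295 scaled CPM at 5 dpi, against 124 and 122 in untouched hearts (log2 difference 1.24 ± 0.10, limma adjusted p = 3.9e-05). Natriuretic peptide nppa, which the atrium and stressed myocardium make, had the highest values of the list, 1943 and 2820 scaled CPM at 5 dpi, against 1145 and 1372 in untouched hearts (log2 difference 0.90 ± 0.26, limma adjusted p = 0.03); its call was lost without 5 dpi replicate 2, untouched replicate 1 or untouched replicate 2, at adjusted p 0.2, 0.14 and 0.083; it was also lost with no filter, at adjusted p 0.06. vegfaa, a vascular endothelial growth factor, had 24.8 and 21.8 scaled CPM at 5 dpi, against 38.3 and 39.25 in untouched hearts (log2 difference -0.71 ± 0.12, limma adjusted p = 0.003). sema3aa, a semaphorin, had 13.6 and 18.5 scaled CPM at 5 dpi, against 28.8 and 25.4 in untouched hearts (log2 difference -0.73 ± 0.15, limma adjusted p = 0.0082), a call lost without 5 dpi replicate 1, at adjusted p 0.072.

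Of 73 receptor genes tested, 17 were higher and 14 lower (median log2 difference -0.02, and 0.15 with CPM as deposited). For the receptor genes, 7 of 17 rises and 6 of 14 falls were kept, CPM as deposited gave 21 higher and 7 lower, and the number higher was 7 without 5 dpi replicate 1, 9 without untouched replicate 1 and 11 without untouched replicate 2. fgfr1b, a fibroblast growth factor receptor, had 12.4 and 9.22 scaled CPM at 5 dpi, against 3.21 and 4.65 in untouched hearts (log2 difference 1.26 ± 0.19, limma adjusted p = 0.0016). pdgfra, a platelet-derived growth factor receptor of fibroblasts and epicardium, had 75.2 and 64.0 scaled CPM at 5 dpi, against 39.0 and 37.3 in untouched hearts (log2 difference 0.85 ± 0.13, limma adjusted p = 0.0021). fzd7b, a Wnt receptor, had 30.5 and 27.7 scaled CPM at 5 dpi, against 18.7 and 18.4 in untouched hearts (log2 difference 0.62 ± 0.11, limma adjusted p = 0.0036). The groups of these 3 receptors did not overlap. Of 8 genes of VEGF ligands and receptors, 5 fell and 0 rose, 3 with kept calls. Of 5 genes of the chemokine Cxcl12 and its receptors, 4 rose and 0 fell, 1 with a kept call; cxcl12a had 141 and 93.6 scaled CPM at 5 dpi, against 28.5 and 38.4 in untouched hearts (log2 difference 1.76 ± 0.21, limma adjusted p = 5.9e-04). Both of these small groups, like the other small groups counted by subunit or family here, were drawn up after values were seen.

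Of 28 genes of the gp130 and STAT3 pathway, 9 were higher and 1 lower (median log2 difference 0.34). For the gp130 and STAT3 genes, 6 of 9 rises and 1 of 1 falls were kept, and 2 passed the filter through the 5 dpi libraries alone, with 2 called higher. lifrb, a receptor of leukaemia inhibitory factor, had 56.1 and 41.0 scaled CPM at 5 dpi, against 11.02 and 8.26 in untouched hearts (log2 difference 2.21 ± 0.20, limma adjusted p = 1.1e-04). crlf1a, a secreted cytokine receptor-like factor, had 12.9 and 14.0 scaled CPM at 5 dpi, against 2.698 and 2.43 in untouched hearts (log2 difference 2.02 ± 0.19, limma adjusted p = 1.2e-04). cntfr, the receptor subunit for ciliary neurotrophic factor, was the 1 lower gene, with 8.74 and 8.35 scaled CPM at 5 dpi, against 18.3 and 19.6 in untouched hearts (log2 difference -1.06 ± 0.17, limma adjusted p = 0.0022). socs3b, a feedback inhibitor of the pathway, had 334 and 347 scaled CPM at 5 dpi, against 204 and 231 in untouched hearts (log2 difference 0.65 ± 0.12, limma adjusted p = 0.0052); it was chosen after its values were seen. The list of AP-1 and other immediate early genes, which a stimulus induces first, holds transcription factors and other genes. Its members were called at shares near those of all genes. Of 47, 4 were higher and 5 lower (median log2 difference -0.08, and 0.11 with CPM as deposited). For the immediate early genes, 2 of 4 rises and 2 of 5 falls were kept, and CPM as deposited gave 7 higher and 3 lower. fosl2 had 354 and 322 scaled CPM at 5 dpi, against 179 and 178 in untouched hearts (log2 difference 0.92 ± 0.15, limma adjusted p = 0.0025), and klf6a had 323 and 331 at 5 dpi, against 534 and 543 in untouched hearts (log2 difference -0.72 ± 0.10, limma adjusted p = 0.0012).

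**Figure D3:**
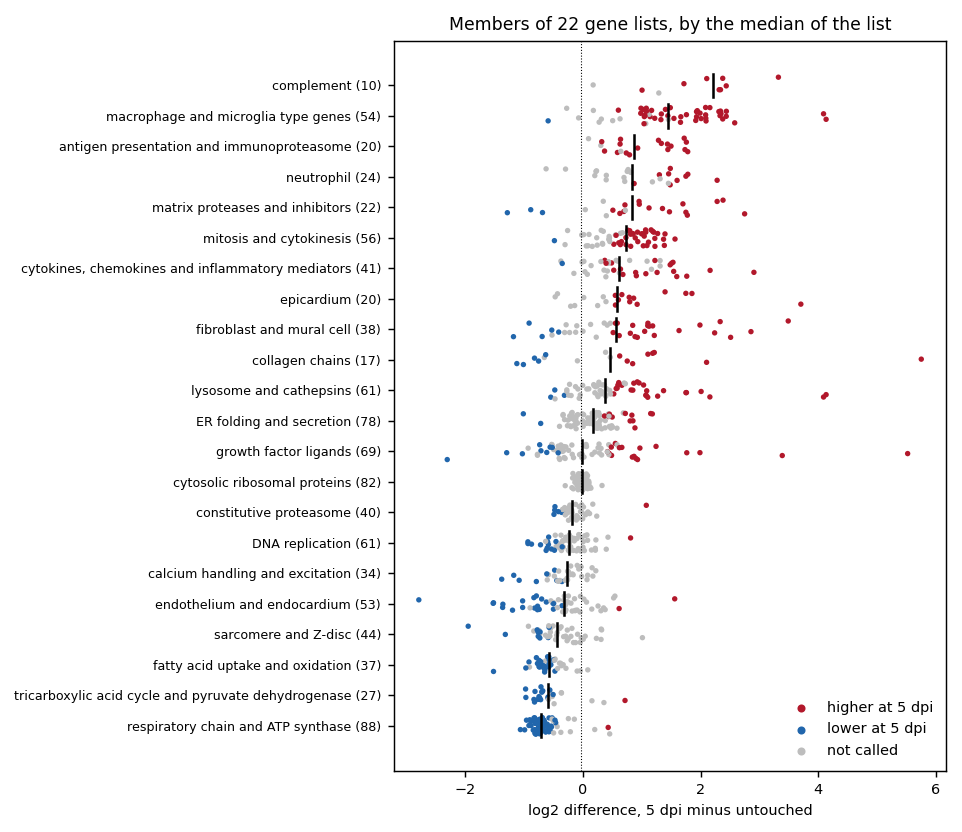
Log2 difference (5 dpi minus untouched, horizontal axis) of each tested member of 22 gene lists, with the number tested in brackets and the list's median as a black bar; red, called higher; blue, called lower; grey, not called; dotted line, the median of all genes tested. Immune and matrix lists lie right of that line, and the 3 energy lists lie left of it.

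Among the cell cycle genes, those of mitosis rose in the majority. Of 56 mitosis and cytokinesis genes tested, 34 were higher and 1 lower, with a median log2 difference of 0.73 and 14 kept rises. For the mitosis genes, the number higher was 19 without 5 dpi replicate 1 and 20 without 5 dpi replicate 2. Levels were low, and 10 members passed the filter through the 5 dpi libraries alone, with 7 called higher. anln, the contractile ring protein anillin, had 19.9 and 23.9 scaled CPM at 5 dpi, against 7.18 and 8.52 in untouched hearts (log2 difference 1.37 ± 0.13, limma adjusted p = 1.5e-04). kif20a, a kinesin of cytokinesis, had 10.7 and 10.7 scaled CPM at 5 dpi, against 4.08 and 2.89 in untouched hearts (log2 difference 1.39 ± 0.16, limma adjusted p = 3.8e-04). ccnb1, cyclin B1, which drives entry into mitosis, had 6.06 and 6.39 scaled CPM at 5 dpi, against 1.78 and 1.76 in untouched hearts (log2 difference 1.38 ± 0.16, limma adjusted p = 4.1e-04). The groups were apart in each of these genes. Fibroblast and macrophage marker sums were also higher at 5 dpi (values above), and their part in the mitosis result was not tested. top2a, the topoisomerase that untangles chromosomes, and plk1, a mitotic kinase, both chosen after their values were seen, had log2 differences of 1.11 and 1.19. The 1 lower gene, the kinesin kif23, had 20.4 and 20.0 scaled CPM at 5 dpi, against 26.7 and 30.7 in untouched hearts, and its call was lost without 5 dpi replicate 1, 5 dpi replicate 2 or untouched replicate 2, at adjusted p 0.12, 0.12 and 0.17; it was also lost with CPM as deposited, at adjusted p 0.17.

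Of 61 DNA replication genes, 1 was higher and 13 were lower at 5 dpi than in untouched hearts, with a median log2 difference of -0.24 and 0 kept falls. The falls included 5 of the 6 subunits of the MCM helicase, which opens DNA at origins. mcm6 had 29.4 and 23.7 scaled CPM at 5 dpi, against 41.7 and 63.1 in untouched hearts (log2 difference -0.93 ± 0.21, limma adjusted p = 0.011), and mcm5 had 23.1 and 18.2 at 5 dpi, against 30.6 and 38.8 in untouched hearts (log2 difference -0.72 ± 0.18, limma adjusted p = 0.015). In both, untouched replicate 2 was the highest library and 5 dpi replicate 2 the lowest. The call of mcm6 was lost without 5 dpi replicate 2 or untouched replicate 2, at adjusted p 0.081 and 0.087, and that of mcm5 without 5 dpi replicate 2 or untouched replicate 2, at adjusted p 0.11 and 0.12; it was also lost with CPM as deposited, at adjusted p 0.052. The sliding clamp gene pcna, with the highest values of the list, had 84.3 and 69.9 scaled CPM at 5 dpi, against 95.7 and 121 in untouched hearts (log2 difference -0.48 ± 0.16, limma adjusted p = 0.043), a call lost without 5 dpi replicate 1, 5 dpi replicate 2 or untouched replicate 2, at adjusted p 0.073, 0.24 and 0.28; it was also lost with CPM as deposited, with quantile normalization, with no filter and with edgeR, at adjusted p 0.17, 0.072, 0.065 and 0.052. The number of lower genes depended on the scaling and the libraries. With CPM as deposited it was 3, with quantile normalization 12 and with edgeR 11. With all 20 libraries in the fit it was 16. It dropped without 5 dpi replicate 1, 5 dpi replicate 2 or untouched replicate 2, but not without untouched replicate 1. ccna2, cyclin A2, was the 1 higher gene, with 6.42 and 6.16 scaled CPM at 5 dpi, against 2.58 and 3.82 in untouched hearts; its call was lost without 5 dpi replicate 1, 5 dpi replicate 2 or untouched replicate 1, at adjusted p 0.084, 0.063 and 0.081. Among 30 cell cycle inhibitors and D cyclins, 3 were higher and 5 lower (median log2 difference -0.07, and 0.08 with CPM as deposited). For the inhibitor and cyclin genes, 1 of 3 rises and 1 of 5 falls were kept, and CPM as deposited gave 4 higher and 2 lower. cdkn1a, the inhibitor p21, had 168 and 175 scaled CPM at 5 dpi, against 322 and 324 in untouched hearts (log2 difference -0.91 ± 0.11, limma adjusted p = 6.9e-04), and meis1a, a homeobox factor known in mouse to hold cardiomyocytes out of the cycle, had 21.4 and 21.1 at 5 dpi, against 10.6 and 9.35 in untouched hearts (log2 difference 1.02 ± 0.16, limma adjusted p = 0.002).

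**Figure D4:**
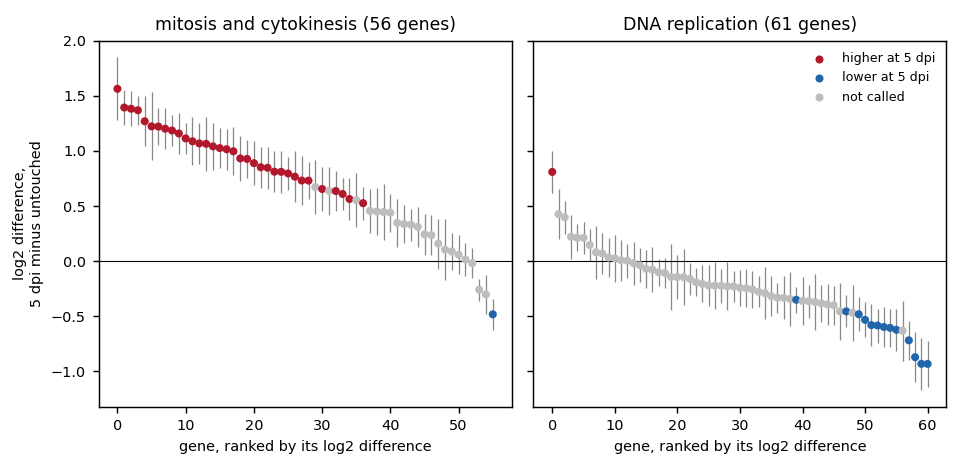
Log2 difference (5 dpi minus untouched) of each tested gene of mitosis and cytokinesis (left, 56 genes) and of DNA replication (right, 61 genes), ranked from high to low; bars are the SE from limma. Of the mitosis genes 34 are called higher (red) and 1 lower (blue), and of the replication genes 1 is called higher and 13 lower; grey points are not called.

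The respiratory chain had the largest share of lower genes of all lists. Of 88 respiratory chain and ATP synthase genes tested, 76 were lower and 1 higher, with a median log2 difference of -0.71 and 8 kept falls. Counted by symbol over all genes tested, which takes in assembly factors that the list leaves out, a fall was called in 34 of 40 genes of complex I, 5 of 8 of complex II, 10 of 12 of complex III, 14 of 17 of complex IV and 15 of 16 of ATP synthase. Their median log2 differences lay between -0.79 for complex III and -0.53 for complex II. ndufa7, a complex I subunit, had 41.3 and 42.7 scaled CPM at 5 dpi, against 75.3 and 81.0 in untouched hearts (log2 difference -0.88 ± 0.14, limma adjusted p = 0.0026). cox5ab, a subunit of cytochrome c oxidase, had 146 and 141 scaled CPM at 5 dpi, against 256 and 318 in untouched hearts (log2 difference -0.99 ± 0.16, limma adjusted p = 0.0027). The groups did not overlap. The sum of the 6 cardiomyocyte markers was also lower at 5 dpi (values above), and its part in the result was not tested. atp5b, the catalytic subunit of ATP synthase, had the highest values of the list, 3418 and 3415 scaled CPM at 5 dpi, against 5460 and 6770 in untouched hearts (log2 difference -0.83 ± 0.21, limma adjusted p = 0.017), a call lost without 5 dpi replicate 1, 5 dpi replicate 2 or untouched replicate 2, at adjusted p 0.093, 0.084 and 0.13. The 1 higher gene was cox4i2, the isoform of subunit 4 that low oxygen induces in mammals, with 24.4 and 26.8 scaled CPM at 5 dpi, against 18.1 and 19.4 in untouched hearts (log2 difference 0.43 ± 0.13); its call was lost without any 1 of the 4 libraries, at adjusted p 0.086 to 0.16. The number of lower genes was 67 with CPM as deposited, 69 with quantile normalization and 73 with edgeR. Leaving out any 1 of the 4 libraries reduced it, most of all without untouched replicate 2. The number called lower over all genes tested was also smaller in each of those fits.

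Genes of fuel use upstream of the chain fell as well. Of 37 genes of fatty acid uptake and oxidation, 23 were lower and 0 higher, with a median log2 difference of -0.58 and 5 kept falls. For the fatty acid genes, the number lower was 6 without 5 dpi replicate 1, 13 without 5 dpi replicate 2 and 7 without untouched replicate 2. cpt2, the inner carnitine palmitoyltransferase, had 62.1 and 56.9 scaled CPM at 5 dpi, against 109 and 126 in untouched hearts (log2 difference -0.97 ± 0.13, limma adjusted p = 0.0011). The uptake receptor gene cd36 had 3.08 and 1.87 scaled CPM at 5 dpi, against 10.4 and 7.38 in untouched hearts (log2 difference -1.52 ± 0.23, limma adjusted p = 0.002). acadvl, the very long chain dehydrogenase with the highest values of the list, had 1372 and 1476 scaled CPM at 5 dpi, against 2204 and 2216 in untouched hearts and was not called (limma adjusted p = 0.065), though it was called with the 4 libraries alone and with all 20 libraries in the fit, at adjusted p 0.0086 and 0.013. Of 27 genes of the tricarboxylic acid cycle and pyruvate dehydrogenase, 18 were lower and 1 higher (median log2 difference -0.59). For the tricarboxylic acid cycle genes, 0 of 1 rises and 3 of 18 falls were kept, and the number lower was 3 without 5 dpi replicate 1, 10 without 5 dpi replicate 2 and 4 without untouched replicate 2. got2b, mitochondrial aspartate aminotransferase, had 242 and 243 scaled CPM at 5 dpi, against 402 and 458 in untouched hearts (log2 difference -0.82 ± 0.15, limma adjusted p = 0.0052). The 1 higher gene was pyruvate carboxylase, pcxa, with 5.48 and 5.11 scaled CPM at 5 dpi, against 2.18 and 3.62 in untouched hearts; its call was lost without 5 dpi replicate 1, 5 dpi replicate 2 or untouched replicate 1, at adjusted p 0.15, 0.1 and 0.18; it was also lost with quantile normalization and with no filter, at adjusted p 0.096 and 0.058. In glycolysis fewer calls were made. Of 38 genes, 2 were higher and 7 lower (median log2 difference -0.27), and 1 call, the fall of the lactate and pyruvate carrier gene slc16a1, was kept, with 61.9 and 69.8 scaled CPM at 5 dpi, against 119 and 134 in untouched hearts (log2 difference -0.93 ± 0.11, limma adjusted p = 6.1e-04). esrra, a nuclear receptor that drives mitochondrial genes, had 22.8 and 22.1 scaled CPM at 5 dpi, against 32.9 and 37.4 in untouched hearts (log2 difference -0.62 ± 0.12, limma adjusted p = 0.0052), 1 of 2 lower genes among 16 regulators of mitochondrial biogenesis.

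Contractile genes had fewer calls. Of 44 sarcomere and Z-disc genes tested, 9 were lower and 0 higher, with a median log2 difference of -0.44 and 1 kept fall; with CPM as deposited 5 were lower and 1 higher. The kept call was of pdlim5a, a Z-disc scaffold, with 10.6 and 10.9 scaled CPM at 5 dpi, against 29.0 and 27.7 in untouched hearts (log2 difference -1.32 ± 0.17, limma adjusted p = 7.7e-04). unc45b, the chaperone that folds myosin, had 626 and 796 scaled CPM at 5 dpi, against 1099 and 1331 in untouched hearts (log2 difference -0.78 ± 0.16, limma adjusted p = 0.0083), a call lost without 5 dpi replicate 1 or untouched replicate 2, at adjusted p 0.078 and 0.071. The ventricular myosin heavy chain gene vmhcl, with the highest values of the list, had 17267 and 22405 scaled CPM at 5 dpi, against 29153 and 31970 in untouched hearts, and was not called (log2 difference -0.63 ± 0.26, limma adjusted p = 0.095), though it was called with all 20 libraries in the fit, at adjusted p 0.031. The untouched libraries lay above the 5 dpi ones in all 3 genes. Of 34 genes of calcium handling and excitation, 8 were lower and 0 higher (median log2 difference -0.26); with CPM as deposited 5 were lower. For the calcium and excitation genes, 2 of 8 falls were kept. casq2, calsequestrin, the calcium store of the sarcoplasmic reticulum, had 534 and 511 scaled CPM at 5 dpi, against 1099 and 1116 in untouched hearts (log2 difference -1.08 ± 0.21, limma adjusted p = 0.0057). atp1b2a, a sodium pump subunit, had 38.9 and 42.5 scaled CPM at 5 dpi, against 87.1 and 99.3 in untouched hearts (log2 difference -1.17 ± 0.11, limma adjusted p = 1.5e-04). atp2a2a, the calcium pump SERCA2, had the highest values of the list, 4070 and 4240 scaled CPM at 5 dpi, against 6746 and 7656 in untouched hearts (log2 difference -0.79 ± 0.20, limma adjusted p = 0.016), a call lost without 5 dpi replicate 1, 5 dpi replicate 2 or untouched replicate 2, at adjusted p 0.098, 0.072 and 0.11.

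Of 28 cardiac transcription factor and fetal cardiac genes, 5 were higher and 3 lower (median log2 difference -0.14, and 0.04 with CPM as deposited), and the rise of nppc was the 1 kept call. For the cardiac factor and fetal genes, CPM as deposited gave 5 higher and 1 lower. The Forkhead factor gene foxo1a had 42.0 and 37.6 scaled CPM at 5 dpi, against 15.4 and 18.02 in untouched hearts (log2 difference 1.204 ± 0.26, limma adjusted p = 0.0095), a call lost without 5 dpi replicate 1 or untouched replicate 1, at adjusted p 0.069 and 0.051. nkx2.5, the homeobox factor of cardiac identity, had 56.1 and 54.8 scaled CPM at 5 dpi, against 71.6 and 78.8 in untouched hearts (log2 difference -0.43 ± 0.14, limma adjusted p = 0.048), a call lost without any 1 of the 4 libraries, at adjusted p 0.084 to 0.22; it was also lost with CPM as deposited, with quantile normalization, with no filter and with edgeR, at adjusted p 0.15, 0.1, 0.067 and 0.057. The 10 genes with the highest values at 5 dpi were mostly not called. They were hsp70.1, hsp70l, vmhcl, mb, myl7, eef1a1l1, slc25a5, gapdh, actc1a and actb2. Of these actb2, a cytoskeletal actin, was called with CPM as deposited and with quantile normalization, at adjusted p 0.046 and 0.0053, and myl7 and slc25a5 were called lower with all 20 libraries in the fit. Myoglobin, mb, the oxygen store of heart muscle, was the 1 called, with 15936 and 20582 scaled CPM at 5 dpi, against 34008 and 33704 in untouched hearts (log2 difference -0.90 ± 0.25, limma adjusted p = 0.025). That call was lost without any 1 of the 4 libraries, at adjusted p 0.062 to 0.19; it was also lost with quantile normalization and with no filter, at adjusted p 0.17 and 0.13. hsp70.1 and hsp70l are similar copies between which counting could divide reads, and had log2 differences of -0.33 ± 0.25 and -0.42 ± 0.30 (limma adjusted p = 0.36 and 0.33). The 20 genes with the highest CPM took 23.2% and 24.9% of it at 5 dpi, against 27.9% and 26.9% in untouched hearts.

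Endothelial genes fell more often than they rose. Of 53 tested, 20 were lower and 2 higher, with a median log2 difference of -0.33 and 10 kept falls. For the endothelial genes, the number lower was 12 without 5 dpi replicate 1, 13 without 5 dpi replicate 2 and 12 without untouched replicate 2. tek, the angiopoietin receptor, had 87.1 and 82.9 scaled CPM at 5 dpi, against 244 and 199 in untouched hearts (log2 difference -1.36 ± 0.12, limma adjusted p = 1.0e-04). flt1, a VEGF receptor, had 112 and 138 scaled CPM at 5 dpi, against 318 and 409 in untouched hearts (log2 difference -1.52 ± 0.17, limma adjusted p = 3.5e-04). The aquaporin gene aqp8a.1, with the highest values of the list, had 987 and 1144 scaled CPM at 5 dpi, against 2385 and 2486 in untouched hearts (log2 difference -1.196 ± 0.15, limma adjusted p = 5.9e-04). The groups were apart in all 3. The general vessel marker cdh5, VE-cadherin, changed less, with 201 and 200.2 scaled CPM at 5 dpi, against 249 and 265 in untouched hearts (log2 difference -0.35 ± 0.10, limma adjusted p = 0.028); its call was lost without any 1 of the 4 libraries, at adjusted p 0.061 to 0.15; it was also lost with CPM as deposited and with quantile normalization, at adjusted p 0.24 and 0.14. pecam1, another marker of that kind, had 86.4 and 80.8 scaled CPM at 5 dpi, against 100.4 and 98.2 in untouched hearts, and was not called (limma adjusted p = 0.23). The tight junction gene cldn5a was higher, with 11.099 and 10.9 scaled CPM at 5 dpi, against 3.04 and 3.10 in untouched hearts (log2 difference 1.56 ± 0.15, limma adjusted p = 1.5e-04). The other higher gene, calcrla, had 3.92 and 4.11 scaled CPM at 5 dpi, against 2.12 and 2.43 in untouched hearts, and its call was lost without any 1 of the 4 libraries, at adjusted p 0.055 to 0.092; it was also lost with quantile normalization and with all 20 libraries in the fit, at adjusted p 0.056 and 0.064.

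Few genes of protein synthesis were called. Of 82 cytosolic ribosomal protein genes none was called in the main limma fit in either direction, and 0 had an unadjusted p under 0.05. edgeR called 0 higher and 0 lower, and limma with CPM as deposited called 1 higher and 0 lower. The median log2 difference was -0.02, and 0.17 with CPM as deposited. Of 86 ribosome biogenesis and translation factor genes, 6 were higher and 7 lower (median log2 difference 0.02). For the biogenesis and translation genes, 0 of 6 rises and 2 of 7 falls were kept, and CPM as deposited gave 15 higher and 3 lower. Of 56 heat shock and chaperone genes, 15 were lower and 1 higher (median log2 difference -0.24), 2 of the falls kept. For the chaperone genes, CPM as deposited gave 6 higher and 12 lower, and the number lower was 3 without 5 dpi replicate 1, 9 without 5 dpi replicate 2 and 4 without untouched replicate 2. bag2, a co-chaperone of Hsp70, had 40.5 and 48.6 scaled CPM at 5 dpi, against 106 and 122 in untouched hearts (log2 difference -1.34 ± 0.16, limma adjusted p = 4.6e-04). hsp90aa1.1, the muscle Hsp90, had 3993 and 4508 scaled CPM at 5 dpi, against 7091 and 7612 in untouched hearts (log2 difference -0.79 ± 0.16, limma adjusted p = 0.0081), a call lost without 5 dpi replicate 1 or untouched replicate 2, at adjusted p 0.073 and 0.061. Of 78 genes of folding and secretion in the endoplasmic reticulum, 11 were higher and 2 lower (median log2 difference 0.18); the higher count was 26 with CPM as deposited, 17 with edgeR, 3 without untouched replicate 2 and 2 without 5 dpi replicate 1. For the reticulum genes, 2 of 11 rises and 1 of 2 falls were kept. pdia3, a protein disulfide isomerase, had 372 and 323 scaled CPM at 5 dpi, against 190.0 and 194 in untouched hearts (log2 difference 0.85 ± 0.13, limma adjusted p = 0.0016). creb3l1, a membrane-bound transcription factor of secretory cells, had 6.20 and 5.16 scaled CPM at 5 dpi, against 1.72 and 2.17 in untouched hearts (log2 difference 1.18 ± 0.19, limma adjusted p = 0.0025).

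Of 61 lysosome genes, 24 were higher and 3 lower (median log2 difference 0.38). For the lysosome genes, 15 of 24 rises and 0 of 3 falls were kept, and 2 passed the filter through the 5 dpi libraries alone, with 1 called higher. Of 14 cathepsin and legumain genes 10 rose, 9 with kept calls. ctsa, a lysosomal carboxypeptidase, had 73.8 and 82.2 scaled CPM at 5 dpi, against 38.7 and 36.5 in untouched hearts (log2 difference 1.03 ± 0.12, limma adjusted p = 4.8e-04). asah1b, an acid ceramidase, had 72.6 and 73.0 scaled CPM at 5 dpi, against 36.4 and 37.8 in untouched hearts (log2 difference 0.95 ± 0.12, limma adjusted p = 6.7e-04). Of 20 proton pump genes, 1 was higher and 3 were lower, none with a kept call; with CPM as deposited 4 were higher and 1 lower. The median log2 difference of the pump genes was -0.07 and turned to 0.11 with CPM as deposited. Of the lysosome list, 8 tested genes are also on the macrophage list, and macrophage marker sums were higher at 5 dpi; their part in the lysosomal result was not tested.

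Among 88 annexin, S100 and cytoskeletal genes, 21 were higher and 10 lower (median log2 difference 0.10). For the cytoskeletal genes, 10 of 21 rises and 2 of 10 falls were kept, CPM as deposited gave 32 higher and 2 lower, and the number higher was 10 without 5 dpi replicate 1 and 13 without untouched replicate 2. s100a10a, a calcium-binding protein that pairs with annexin 2, had 22.2 and 27.5 scaled CPM at 5 dpi, against 5.22 and 4.18 in untouched hearts (log2 difference 2.18 ± 0.25, limma adjusted p = 3.9e-04). lmna, which encodes lamin A, had 75.4 and 77.4 scaled CPM at 5 dpi, against 43.2 and 41.2 in untouched hearts (log2 difference 0.84 ± 0.11, limma adjusted p = 6.9e-04). rhoab, a small GTPase, had 98.2 and 112 scaled CPM at 5 dpi, against 196 and 190.5 in untouched hearts (log2 difference -0.87 ± 0.13, limma adjusted p = 0.002). The groups of these 3 genes did not overlap.

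Genes of redox and iron handling were called higher at a share near that of all genes, and lower more often. Of 60 tested, 8 were higher and 14 lower (median log2 difference -0.04, and 0.14 with CPM as deposited). For the redox and iron genes, 5 of 8 rises and 2 of 14 falls were kept, CPM as deposited gave 12 higher and 6 lower, and the number lower was 5 without 5 dpi replicate 1, 4 without 5 dpi replicate 2 and 3 without untouched replicate 2. gstm.3, a glutathione transferase, had 473 and 399 scaled CPM at 5 dpi, against 85.4 and 80.3 in untouched hearts (log2 difference 2.38 ± 0.19, limma adjusted p = 3.9e-05). txn, thioredoxin, had 51.8 and 52.4 scaled CPM at 5 dpi, against 18.2 and 15.9 in untouched hearts (log2 difference 1.56 ± 0.14, limma adjusted p = 8.1e-05). Of 3 transferrin receptors, which bring iron into cells, 2 fell. tfr1b had 148 and 178 scaled CPM at 5 dpi, against 340.0 and 504 in untouched hearts (log2 difference -1.34 ± 0.20, limma adjusted p = 0.0015), and tfr1a had 49.8 and 52.5 at 5 dpi, against 118 and 139 in untouched hearts (log2 difference -1.31 ± 0.24, limma adjusted p = 0.0046). The iron carrier gene tfa of the liver, which the hepatocyte markers hold, rose to 505 and 313 scaled CPM at 5 dpi, against 145 and 114 in untouched hearts (log2 difference 1.63 ± 0.27, limma adjusted p = 0.0026), while the other 4 hepatocyte markers summed to under 2 scaled CPM in each library and 1 of them was at 0 in all 4.

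Of 43 genes of hypoxia and nutrient stress, 5 were higher and 10 lower (median log2 difference -0.21). For the stress genes, 3 of 5 rises and 4 of 10 falls were kept, CPM as deposited gave 6 higher and 7 lower, the number lower was 4 without 5 dpi replicate 1, and 2 passed the filter through the 5 dpi libraries alone, with 1 called higher. epas1b, a hypoxia-inducible factor of endothelium, had 129.97 and 156 scaled CPM at 5 dpi, against 266 and 334 in untouched hearts (log2 difference -1.06 ± 0.13, limma adjusted p = 6.9e-04). mthfd2, a mitochondrial folate enzyme, had 72.6 and 79.0 scaled CPM at 5 dpi, against 131 and 153 in untouched hearts (log2 difference -0.89 ± 0.13, limma adjusted p = 0.0016). plod2, which hydroxylates collagen lysines for crosslinking, was among the higher genes, with 265 and 259 scaled CPM at 5 dpi, against 70.7 and 73.1 in untouched hearts (log2 difference 1.85 ± 0.12, limma adjusted p = 1.3e-05). Groups did not overlap in these genes. Of 41 apoptosis and p53 genes, 7 were higher and 5 lower (median log2 difference 0.06); casp3a, an executioner caspase, had 39.5 and 32.3 scaled CPM at 5 dpi, against 21.1 and 19.5 in untouched hearts (log2 difference 0.79 ± 0.13, limma adjusted p = 0.0033). For the apoptosis genes, 4 of 7 rises and 1 of 5 falls were kept, CPM as deposited gave 12 higher and 3 lower, and 1 passed the filter through the 5 dpi libraries alone, with 1 called higher. The shares called on the apoptosis list and on the clock list were near those of all genes. Of 42 circadian clock genes, 5 were higher and 6 lower (median log2 difference -0.00, and 0.18 with CPM as deposited). For the clock genes, 2 of 5 rises and 1 of 6 falls were kept, and CPM as deposited gave 10 higher and 3 lower. nfil3-5, a repressor of the clock's output, had 20.5 and 18.5 scaled CPM at 5 dpi, against 9.07 and 7.49 in untouched hearts (log2 difference 1.14 ± 0.15, limma adjusted p = 8.2e-04), and the light-responsive period gene per2 had 271 and 279.6 at 5 dpi, against 429 and 431 in untouched hearts (log2 difference -0.64 ± 0.10, limma adjusted p = 0.0025). The time of day at collection is not given in the sources used here.

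Genes of cells that the preparation could carry along were checked as well. Of 22 erythrocyte genes, 4 were lower and 0 higher (median log2 difference -0.61), and 6 erythrocyte markers summed to 8357 and 7359 scaled CPM at 5 dpi, against 9096 and 8809 in untouched hearts. For the erythrocyte genes, 0 of 4 falls were kept, and CPM as deposited gave 0 higher and 1 lower. Of 24 thrombocyte and coagulation genes, 5 were higher and 2 lower (median log2 difference 0.03). The 3 thrombocyte markers tested summed to 49.1 and 49.5 scaled CPM at 5 dpi, against 73.5 and 76.0 in untouched hearts, and 0 of them were called. For the coagulation genes, 3 of 5 rises and 0 of 2 falls were kept, CPM as deposited gave 7 higher and 0 lower, and 1 passed the filter through the 5 dpi libraries alone, with 1 called higher. f13a1a.1, a subunit of the clot-crosslinking factor XIII that macrophages also make, had 579 and 1663 scaled CPM at 5 dpi, against 223 and 176 in untouched hearts, with 5 dpi replicate 2 far above replicate 1 and a call that was lost without 5 dpi replicate 2 or untouched replicate 2, at adjusted p 0.089 and 0.081. No skeletal muscle gene of 17 was called in the main limma fit or by edgeR, and 2 had an unadjusted limma p under 0.05. With all 20 libraries in the fit 1 was called lower. Of 11 smooth muscle and elastin genes, 2 were higher and 5 lower (median log2 difference -0.41). For the smooth muscle genes, 2 of 2 rises and 1 of 5 falls were kept, and CPM as deposited gave 2 higher and 3 lower. The digestive protease gene ctrb1 of the exocrine pancreas had 46.1 and 6.93 scaled CPM at 5 dpi, against 188 and 178 in untouched hearts, and its call was lost without 5 dpi replicate 2, untouched replicate 1 or untouched replicate 2, at adjusted p 0.13, 0.073 and 0.088. The other 5 pancreas markers summed to under 12 scaled CPM in each library, 1 of them was at 0 in all 4, and the source of the ctrb1 reads was not tested. Of 8 neuron and Schwann cell genes, 2 were higher and 2 lower (median log2 difference 0.22). For the neuron and Schwann cell genes, 1 of 2 rises and 0 of 2 falls were kept, and CPM as deposited gave 2 higher and 1 lower.

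The genes of the kit receptors, the subject of the study's mutants, had few reads in these libraries. kita had 27 and 22 reads at 5 dpi, against 17 and 26 in untouched hearts, and kitb had 3 and 2 reads at 5 dpi, against 2 and 4 in untouched hearts. The groups of kita overlapped (limma adjusted p = 0.92), and kitb did not pass the filter. Of the ligands, kitlga had 10.1 and 11.6 scaled CPM at 5 dpi, against 7.23 and 8.21 in untouched hearts, apart but not called (log2 difference 0.44 ± 0.18, limma adjusted p = 0.097). Its partner kitlgb had 3 and 1 reads at 5 dpi, against 0 and 1 in untouched hearts, and did not pass the filter.

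The neighbouring times gave 2 further contrasts. Against 2 dpi 4208 genes were called (40.8%), of which 2028 were higher at 5 dpi (19.7%) and 2180 lower (21.1%). At 7 dpi against 5 dpi 454 genes were called (4.4%), of which 251 were higher (2.43%) and 203 lower (1.97%). These contrasts share the 5 dpi libraries with the main one, so each gives its own values. Mitosis genes were lower at 5 dpi than at 2 dpi in 50 of 56, and DNA replication genes in 47 of 61. So were all 40 constitutive proteasome genes, 63 of 82 ribosomal protein genes and 55 of 78 endoplasmic reticulum genes. Immediate early genes were higher at 5 dpi than at 2 dpi in 38 of 47, while of 88 respiratory chain genes 2 were higher and 2 lower.

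Single genes show the different courses. fn1a was lower at 5 dpi, with 1350 and 1316 scaled CPM, than at 2 dpi, with 3755 and 3706 (log2 difference, 5 dpi minus 2 dpi, -1.48 ± 0.15, limma adjusted p = 1.3e-04). anln had 19.9 and 23.9 scaled CPM at 5 dpi, against 53.6 and 51.4 at 2 dpi (log2 difference -1.23 ± 0.13, limma adjusted p = 1.9e-04). nppc was higher at 5 dpi, with 162 and 160.4 scaled CPM, against 52.6 and 32.8 at 2 dpi (log2 difference 1.93 ± 0.30, limma adjusted p = 8.4e-04). col11a1b, with 176 and 169 scaled CPM at 5 dpi, against 141 and 159 at 2 dpi, was not called (limma adjusted p = 0.43). chst1 was lowest at 5 dpi, with 25.5 and 37.6 scaled CPM in untouched hearts, 24.3 and 26.0 at 2 dpi, 5.79 and 6.25 at 5 dpi, 31.8 and 21.1 at 7 dpi and 37.9 and 43.1 at 14 dpi. Its log2 difference was -1.90 ± 0.21 for 5 dpi minus 2 dpi (limma adjusted p = 2.0e-04) and 1.94 ± 0.21 for 7 dpi minus 5 dpi (limma adjusted p = 0.0095). flt1 had 194 and 231 scaled CPM at 2 dpi, 112 and 138 at 5 dpi and 285 and 237 at 7 dpi, and was called lower at 5 dpi than at 2 dpi (limma adjusted p = 0.0055; 0.053 without 5 dpi replicate 1) and higher at 7 dpi than at 5 dpi (limma adjusted p = 0.018). Most calls of 7 dpi against 5 dpi were lost when 1 library of either group was left out. limma called 0 genes without either 5 dpi library, where 1652 genes without replicate 1 and 1398 without replicate 2 had an unadjusted p under 0.05, and it called 1 without 7 dpi replicate 1 and 77 without 7 dpi replicate 2, so that the calls of chst1 and flt1 were lost without either 5 dpi library and without 7 dpi replicate 1.

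**Figure D5:**
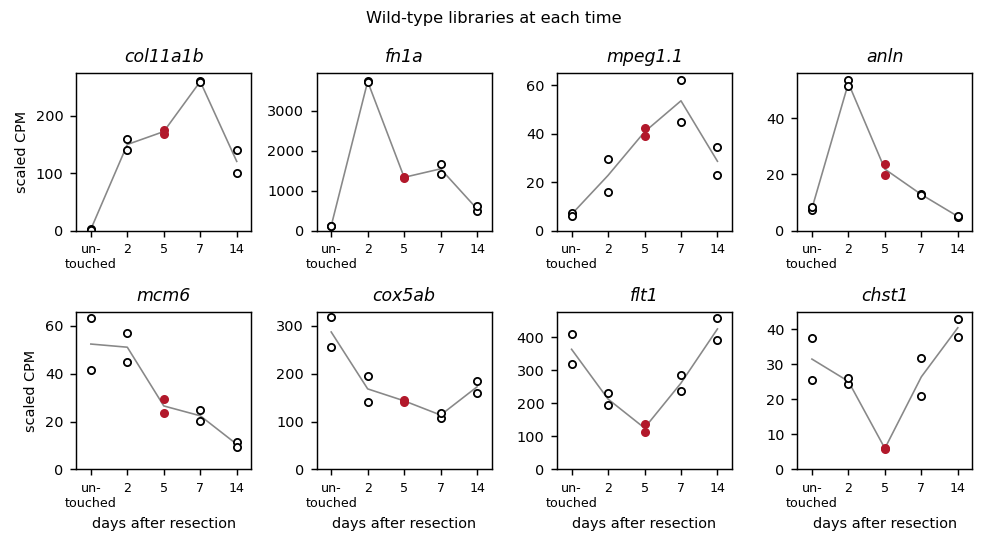
Scaled CPM of 8 genes in each wild-type library, untouched and at 2, 5, 7 and 14 dpi; circles are libraries, 5 dpi in filled red, and the line joins the group means (2 libraries each). The matrix genes col11a1b and fn1a and the macrophage gene mpeg1.1 stay above untouched at each later time, and chst1 and flt1 are lowest at 5 dpi.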

How the data were processed

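The cells were isolated cardiomyocytes of wild-type zebrafish, 2 libraries per group. The authors deposited CPM values per gene (read counts per 1000000 reads on genes). Per the submitters' processing notes, FastQC and featureCounts were used with build danRer10. The sources used here do not give the aligner, the annotation or the strand setting. In all 20 libraries 100% of values were whole reads within 0.1, so depth could be recovered, at 14604835 to 23161870 reads in the wild-type libraries. 3 lines without a gene were left out.

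CPM was divided by median-ratio factors of the 10 wild-type libraries (0.877 to 1.18), which assume that most genes do not change. The filter was CPM 1 in any 2 of the 4 libraries, and log2(scaled CPM + 1) was fitted with limma 3.58.1 in R 4.3.3, with 5 group means, 5 residual degrees of freedom and a mean-dependent prior variance. The 10 libraries of kit mutants stayed out because 3 of their replicate pairs were nearly identical. An edgeR 4.0.16 quasi-likelihood test on the recovered reads was an alternative, beside other scalings, filters, a pseudocount of 0.25, a replicate block and each library left out. Tested on simulated data for 5 dpi against untouched over 10320 genes, limma called 72 of 100 genes changed 2-fold, 97 of 100 changed 4-fold and 11 of 10120 unchanged ones. Far fewer genes were changed there than were called in the data, and as many up as down. The changed genes were also drawn only from those above a minimum level in untouched hearts, while the genes tested include lower ones. These error counts may therefore not carry over to the data.

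Members and lists were chosen with earlier results of these data known. Named genes are taken from the 12 largest rises and falls that had an adjusted p under 0.05, a mean of 5 or more scaled CPM in the higher group, libraries of the groups apart and a call kept without each of the 4 libraries, from the 10 highest levels at 5 dpi, from the 3 smallest p-values per list and direction with the highest member, and from the kit genes. Markers named from the marker check, and genes said to be so, stand outside that rule. After values were seen, misplaced symbols were removed from the endothelial, ribosomal, collagen and fatty acid lists. Some genes are not reported here.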

Additional observations from a re-analysis of the deposited data

How the results depend on the processing

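With 1 of the 10 wild-type libraries left out, the number of genes called at 5 dpi against untouched ranged from 937 to 3310, with 598 to 1630 higher and 339 to 1680 lower, beside 2769, 1410 and 1359 with all. The low ends came without 5 dpi replicate 1, and a group with 1 library left was assumed to vary like the others. The 9 other settings gave 2451 to 3572 genes. Lower genes numbered 621 with CPM as deposited, which moves the centre of all genes. Genes called at 5 dpi against 2 dpi ranged from 2519 to 4117 with 1 library left out. Genes called at 7 dpi against 5 dpi ranged from 0 to 824 with 1 left out, and were 184 with no filter and 1169 with all 20 libraries; the cause was not tested.

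Of the 147 tested genes named, 133 were called and 104 of those calls were kept without each of the 4 libraries. Differences that changed sign were all of uncalled genes. eef1a1l1 had log2 differences of -0.0134 (without untouched replicate 1) to 0.212 with 1 library left out. gapdh had 0.063 with CPM as deposited, 0.095 with quantile normalization and -0.291 to 0.0457 with 1 library left out. With quantile normalization hsp70.1 had 0.254 and hsp70l 0.121. kita had 0.065 with CPM as deposited and -0.157 to 0.0887 with 1 library left out.

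The replicate differences of 5 dpi and untouched correlated across genes at -0.0484, and those of all 10 pairs of groups at -0.186 to 0.156. Such correlations cannot exclude that libraries of the same number were prepared together, because a shared effect on some genes or of mixed sign can leave no correlation. The labels do not say. With the replicate number as a block 2720 genes were called (1392 higher, 1328 lower) at 5 dpi against untouched, 4115 at 5 dpi against 2 dpi and 375 at 7 dpi against 5 dpi. Of the named calls, nkx2.5 (adjusted p = 0.053) and pcna (adjusted p = 0.055) were lost under limma with the block.

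With 2 libraries per group, many calls of moderate size are lost when 1 library is left out, and genes near 1 CPM rest on about 20 reads. Cell makeup and expression per cell cannot be told apart in these libraries.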
